A study of Caenorhabditis elegans with 30 samples.

Results

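The genes *oma-1*, *oma-2*, *puf-5*, *puf-11*, *mex-3*, *pos-1*, *mex-5*, *mex-6* and *spn-4* encode RNA-binding proteins that act in the oocytes and early embryos of *C. elegans*. These 9 genes were chosen by name for that role, out of 46726 genes in each count table, and the rule used no measured value. Earlier results of these data were known when they were chosen. All 9 had enough counts to be tested, as did 16048 genes in all. RNAseq was done on whole nematodes of a synchronized culture, which were placed as L4 larvae, the last stage before adulthood, on 1 of 5 media. The media held 100μM AZT, 100μM d4T, 100μM FLT, 0.033% DMSO (the solvent control) or no addition (unexposed), and animals were collected after 24h or 72h, in 3 biological replicates for each of the 10 groups. All 3 agents are analogues of thymidine and differ at the sugar, where AZT carries an azido group, d4T has a double bond and FLT carries a fluorine. The cultures of 72h went to fresh plates each day, and eggs and bacteria were removed through a mesh before RNA was taken. The methods of the study name N2 Bristol as its wild type strain, while the labels of these libraries give no strain. Any embryos still inside the mothers stayed in the samples, and their number is not given.

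Nematode oocytes stop transcription as they complete their growth, and the mRNAs they store are translated at set times and places until the embryo begins transcription of its own. Proteins that bind the untranslated regions of these mRNAs hold them silent or release them. OMA-1 and OMA-2, close copies with CCCH zinc fingers, are needed redundantly for oocyte maturation and are destroyed after the first division of the embryo. PUF-5 and PUF-11 belong to the Pumilio family and repress translation during late oogenesis. MEX-3 (a KH domain protein), POS-1 (CCCH zinc fingers) and SPN-4 (an RNA recognition motif) control maternal mRNAs in cells of the anterior and posterior of the embryo, and MEX-5 and MEX-6, again close copies with CCCH zinc fingers, set up the asymmetry of the zygote.

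On the WBcel235 build, *oma-1* (WBGene00003864) lies on chromosome IV from 8888976 to 8890999 and *oma-2* (WBGene00003865) on chromosome V from 8029439 to 8031214. *puf-5* (WBGene00004241) lies on chromosome II from 8575541 to 8577787 and *puf-11* (WBGene00022257) on chromosome IV from 6421585 to 6423497. *mex-3* (WBGene00003229) lies on chromosome I from 127285 to 134270, *pos-1* (WBGene00004078) on chromosome V from 8414086 to 8415254 and *spn-4* (WBGene00004984) on chromosome V from 6783187 to 6784903. *mex-5* (WBGene00003230) lies on chromosome IV from 13353723 to 13356104 and *mex-6* (WBGene00003231) on chromosome II from 9524174 to 9526359. All counts are over the exons of each gene. *spn-4* is on the minus strand, with the protein-coding gene ZC404.15 on the other strand of the same stretch, and without a stated strand setting for the counts the reads of this pair cannot be told apart. Reads that fit both of a pair of close copies were counted for neither, which limits *oma-1* with *oma-2*, *mex-5* with *mex-6*, and *puf-11* with its copy *puf-3*. *puf-3* was listed at 0 counts in all 30 libraries.

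Counts on genes were 11326667 to 30618790 per library (median 23973811), and reads that fit several places were 7.53 to 23.6% of each library (median 11.6%). The labels give whole nematodes, and lists of 8 intestine, 6 muscle and 6 neuron genes were all expressed, with none of their genes at 0 in a group. Each exposure was sequenced in its own lane, and FLT on another flow cell, and effects of lane and of exposure therefore cannot be told apart at either time. The 24h and 72h libraries of an exposure shared a lane. Of the d4T 24h group, the library labelled d4T 24h replicate 2 stood apart. Its log2 profile over genes had a correlation of 0.987 with each library of AZT 24h, against 0.914 and 0.933 with d4T 24h replicates 1 and 3. It held 3.82 (*spn-4*) to 6.06 (*puf-5*) times the mean level of d4T 24h replicates 1 and 3 for the 9 genes. Whether this library carries the right label was not tested. Since all libraries share 1 estimate of the spread, this library also widened the errors of comparisons it was no part of. The standard errors of the log2 fold changes of the 9 genes between single groups were 0.348 to 0.475 with all 30 libraries and 0.193 to 0.327 without it, and the calls of the 9 genes are given both ways. A change means a Benjamini-Hochberg adjusted p under 0.01 over all genes tested, from edgeR's quasi-likelihood test. DESeq2 also called 0 of the 9 genes in each comparison in which edgeR called 0 with all libraries.

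The 9 genes were abundant, with at least 940 counts in each library. Together they came to 0.0746 to 0.801% of the counts on genes, once library sizes were scaled by TMM (median 0.490%). Per kb of exon, *pos-1* was highest, at a median over libraries of 841 CPM per kb (CPM is counts per 1000000 counts on genes, scaled by TMM), followed by *spn-4* at 506 and *mex-5* at 312 CPM per kb. *oma-2* had 261, *mex-6* 219, *puf-5* 215, *puf-11* 179, *oma-1* 160 and *mex-3* 145 CPM per kb. Across the 10 groups the same conditions stood at the ends of the order for nearly all of them. FLT 24h held the lowest mean of all 9 genes, and its replicate 3 was the lowest of the 30 libraries for each. DMSO 72h held the highest mean for 7 genes, FLT 72h for *puf-5* and AZT 24h for *puf-11*. The highest group mean was 4.03 (*puf-11*) to 9.02 (*oma-2*) times the lowest.

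**Figure D1:**
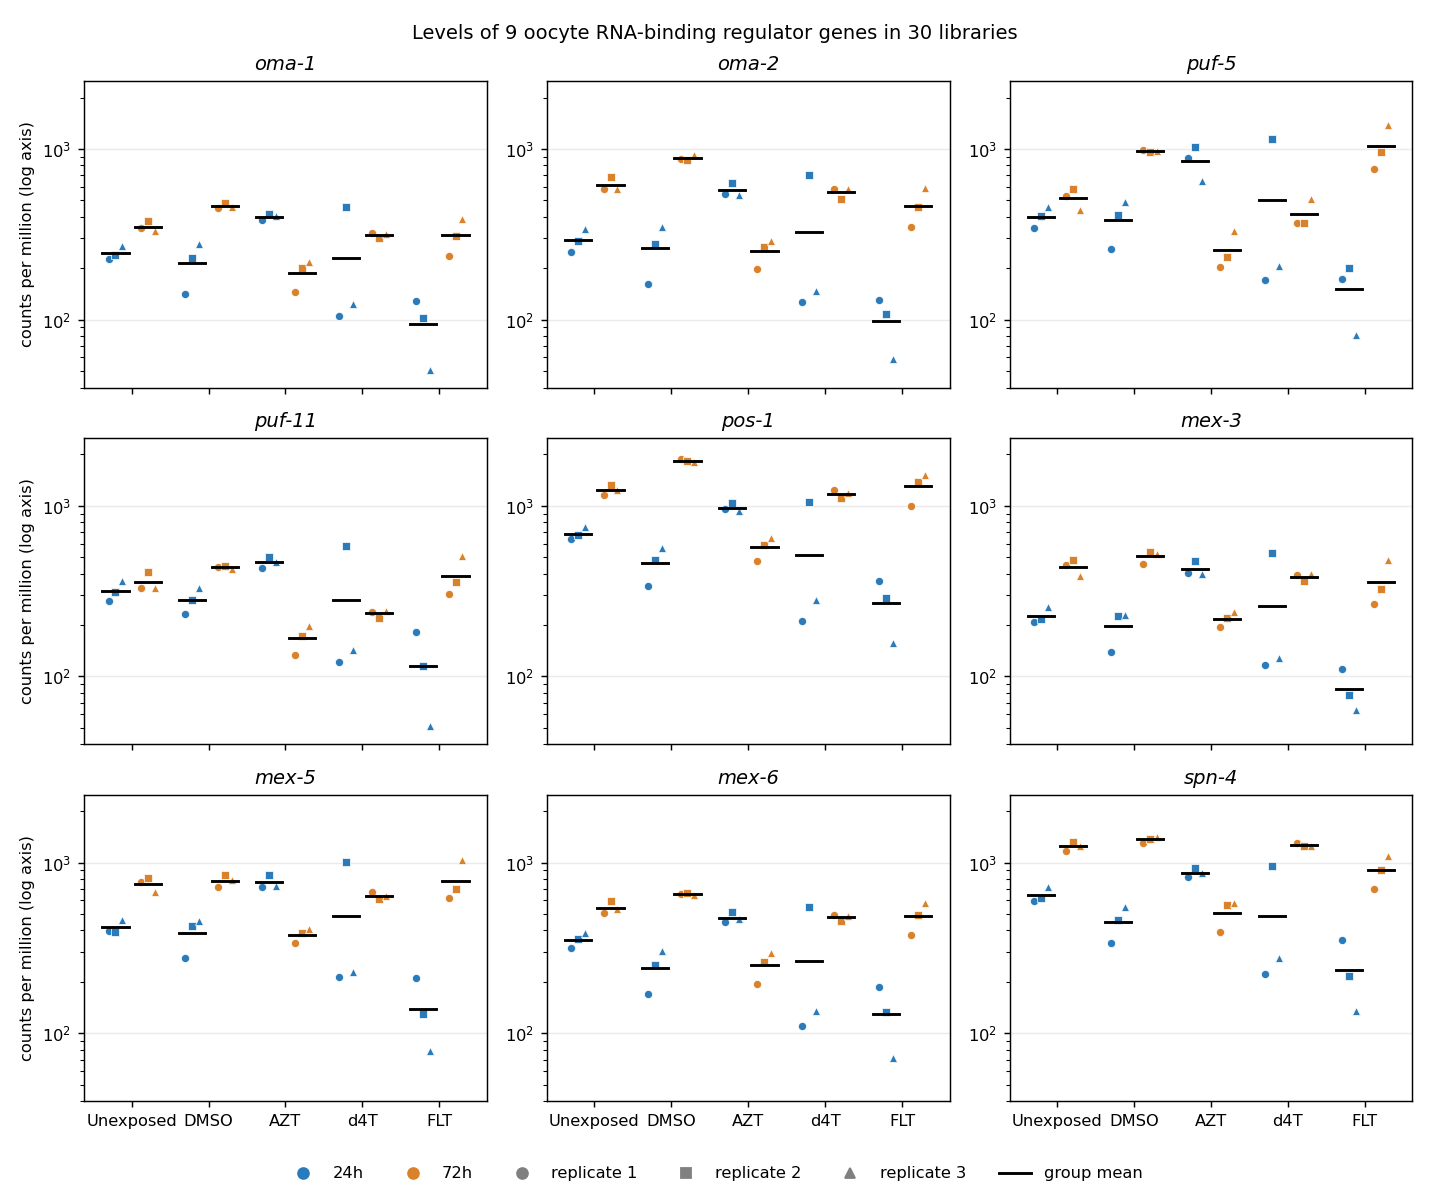
Level of each of the 9 genes in each library, in CPM on a log axis, by exposure (Unexposed, DMSO, AZT, d4T, FLT). Points are libraries (blue 24h, orange 72h, the marker giving the replicate) and bars are group means of 3 libraries. AZT was high at 24h and low at 72h for every gene, FLT the other way round, and d4T 24h replicate 2 stood far above the other 2 libraries of its group.

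Ordered by mean level, most neighbouring groups were not separate. Of the 9 neighbouring pairs of groups, the libraries did not overlap in 4 for *oma-1* and *spn-4*, in 3 for *pos-1*, in 2 for *oma-2*, *puf-5* and *mex-6*, and in 1 for *puf-11*, *mex-3* and *mex-5*. For *oma-1* the order ran FLT 24h, AZT 72h, DMSO 24h, d4T 24h, unexposed 24h, FLT 72h, d4T 72h, unexposed 72h, AZT 24h and DMSO 72h. Its means were 93.6 CPM in FLT 24h, 188 CPM in AZT 72h and then 216, 229, 245, 311, 314, 350.2, 399.9 and 464 CPM. FLT 24h was separate from AZT 72h, as was each step from d4T 72h upwards, and the other neighbouring groups overlapped. For *spn-4* the highest mean was again DMSO 72h (1366 CPM), followed by d4T 72h (1263 CPM), unexposed 72h (1245 CPM) and FLT 72h (902 CPM), while AZT 72h (509 CPM) stood among the groups of 24h. The libraries of *spn-4* in d4T 72h and unexposed 72h overlapped, and those of both stood apart from FLT 72h.

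The first question was what each analogue changed against its solvent. With AZT at 72h, 8 of the 9 genes fell and none rose, where 21.6% of all genes tested fell. *oma-2* stood at 879, 866 and 923 CPM with DMSO at 72h and at 197, 267 and 290.4 CPM with AZT. Every AZT library was below every DMSO library, as held for all 9 genes and for 31.3% of all genes tested, and the log2 fold change was -1.82 (standard error, SE, 0.41, adjusted p = 0.00059). *puf-5* stood at 991, 965 and 969 CPM with DMSO and at 204, 234 and 331 CPM with AZT. The groups were again far apart, with a log2 fold change of -1.93 (SE 0.46, adjusted p = 0.00091). *pos-1* stood at 1889, 1822 and 1800.2 CPM with DMSO and at 472, 591 and 646 CPM with AZT. All AZT libraries were lower, by -1.69 on the log2 scale (SE 0.37, adjusted p = 0.00038). *spn-4* stood at 1308, 1382 and 1407 CPM with DMSO and at 389, 560.2 and 576 CPM with AZT, without overlap, and its log2 fold change was -1.43 (SE 0.36, adjusted p = 0.0014).

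The other genes moved by similar amounts. The log2 fold change with AZT at 72h was -1.31 for *oma-1* (adjusted p = 0.0036), -1.38 for *puf-11* (adjusted p = 0.0043), -1.21 for *mex-3* (adjusted p = 0.0051) and -1.39 for *mex-6* (adjusted p = 0.0031). *mex-5*, the zygote polarity gene, stood at 721, 843 and 788 CPM with DMSO and at 336, 385 and 405 CPM with AZT. Its libraries did not overlap either, while its log2 fold change of -1.06 (SE 0.38, adjusted p = 0.018) did not pass. With d4T 24h replicate 2 left out, all 9 genes fell (-2.001 to -1.14), where 26.6% of genes fell. Replicate 1 of AZT 72h had the lowest level of all 9 genes in its group and the highest shares of counts on ribosomal RNA genes (5.73%, with a median of 0.649% over libraries) and of reads that fit several places (23.6%). Without this replicate 3 of the 9 genes passed, with a median log2 fold change of -1.27 instead of -1.39, and without DMSO 72h replicate 2, 5 passed. The share of all genes that fell was not taken in those fits, so that a general loss of calls cannot be told apart. Scaled by library totals 4 genes passed, where 2222 of all genes tested were lower, against 3474 with TMM. Against unexposed nematodes 1 passed (*spn-4*), where 13.2% of all genes were lower.

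Genes of other tissues moved with this result in the opposite direction. Of the lists measured beside the 9 genes, 7 of 8 intestine genes rose with AZT at 72h, and their summed level was 11376 to 14390.3 CPM with DMSO and 40091 to 56666 CPM with AZT. Of 6 muscle genes 5 rose (449.8 to 550.5 CPM with DMSO, 907 to 1069.5 CPM with AZT), of 6 neuron genes 4 rose (292 to 307 and 346 to 378 CPM) and of 10 tested cuticle genes 7 rose (127 to 155 and 563 to 735 CPM). In unexposed nematodes at 72h these sums were 26695 to 34810 CPM (intestine), 565 to 710 CPM (muscle), 299 to 306 CPM (neuron) and 145 to 174 CPM (cuticle). AZT thus stood above both controls in each sum. DMSO stood below unexposed nematodes in the intestine and muscle sums. In whole nematodes, fewer oocytes and less of these mRNAs per oocyte cannot be told apart, and the part of the other tissues in the result was not tested. In the scaling by general germline genes, which sets each change against that of the germline, 3 of the 9 genes passed with AZT at 72h (*oma-2*, *puf-5* and *pos-1*). Of all genes tested, 522 were lower and 8471 higher in that scaling, with a median of 1.41. The values of all 9 genes were -0.93 to -0.03 on the log2 scale.

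At 24h the same comparison ran the other way in its values. With AZT at 24h, 0 of the 9 genes passed with all libraries, where 10.2% of genes tested changed in either direction. For 8 of the 9 genes the unadjusted p of edgeR was under 0.05, where 19.1% of all genes were higher at that p. *mex-3*, whose product represses translation of the *pal-1* mRNA, stood at 139, 225 and 229 CPM with DMSO and at 406, 474 and 396 CPM with AZT. The groups did not overlap, as held for all 9 genes and for 29.5% of all genes with AZT higher, and the log2 fold change was 1.11 (SE 0.36, adjusted p = 0.026). *oma-2* stood at 161, 276 and 349.7 CPM with DMSO and at 545, 635 and 538 CPM with AZT, a log2 fold change of 1.13 (SE 0.41, adjusted p = 0.041). The range over the 9 genes was 0.73 (*puf-11*, adjusted p = 0.16) to 1.14 (*puf-5*, adjusted p = 0.058).

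In the fit without d4T 24h replicate 2, 8 of the 9 genes rose with AZT at 24h, where 14.5% of genes rose. *mex-3* had a log2 fold change of 1.13 (SE 0.20, adjusted p = 6.2e-05) and *oma-2* of 1.16 (SE 0.24, adjusted p = 0.00044) in that fit. *puf-11* was the exception, at 0.76 (95% interval 0.22 to 1.29, adjusted p = 0.021). In a fit of the AZT 24h and DMSO 24h libraries alone, all 9 passed, where 13.2% of genes were higher. Beside these values, 6 of 8 intestine genes were lower with AZT at 24h with all libraries (66526 to 90901 CPM summed with DMSO, 34539.7 to 42106 CPM with AZT). Unexposed nematodes at 24h had 34785 to 43311 CPM, near the AZT libraries and below all DMSO libraries. Of 9 tested genes on the early zygotic list, chosen as genes that embryos transcribe themselves, 3 were lower (75.9 to 108 and 43.9 to 51.5 CPM summed). These were *elt-1* (mean 43.0 CPM with DMSO and 16.8 CPM with AZT), *hnd-1* and *elt-7*. Whether their RNA came from embryos or from tissues of the mothers was not tested. The early zygotic sum in unexposed nematodes was 46.8 to 62.7 CPM, also below all DMSO libraries. *ceh-51* of this list was at 0 in every library. Cuticle genes were lower in 2 of 10 (277 to 445 CPM summed with DMSO, 131 to 183 CPM with AZT and 112 to 170 CPM in unexposed nematodes). Without d4T 24h replicate 2, 7 of 8 intestine, 4 of 9 early zygotic and 6 of 10 cuticle genes were lower, where 15.6% of all genes were. The part of these lists in the result was not tested.

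The change of sign between the times was itself tested, as the effect of AZT at 72h minus its effect at 24h. All 9 genes passed, all lower at 72h, where 23.7% of genes were lower. The differences were -3.07 for *puf-5* (SE 0.64, adjusted p = 0.00023), -2.95 for *oma-2* (SE 0.58, adjusted p = 0.00012) and -2.77 for *pos-1* (SE 0.51, adjusted p = 6.7e-05). The smallest difference was that of *mex-5*, at -2.05 (SE 0.54, adjusted p = 0.0019). Without the library labelled d4T 24h replicate 2 the 9 differences were -3.17 to -2.16, with 9 of 9 lower and 27.9% of genes lower. All 9 also passed with each library of these 4 groups left out in turn.

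FLT at 24h gave the lowest levels of the series. With all libraries 1 of the 9 genes fell against DMSO, where 9.39% of genes fell. *mex-5* stood at 274, 425 and 457 CPM with DMSO at 24h and at 209.8, 129 and 78.2 CPM with FLT. All FLT libraries were lower, and the log2 fold change was -1.47 (SE 0.39, adjusted p = 0.0062). *oma-2* stood at 161, 276 and 349.7 CPM with DMSO and at 129.5, 107 and 59.0 CPM with FLT, also without overlap, while its log2 fold change of -1.41 (SE 0.41, adjusted p = 0.012) did not pass. The libraries of 6 of the 9 genes did not overlap, where 19% of all genes were separate with FLT lower. *pos-1* (337, 483 and 565 CPM with DMSO, 361, 289 and 157 CPM with FLT), *mex-6* and *spn-4* overlapped through DMSO 24h replicate 1 and FLT 24h replicate 1, and *pos-1* had the log2 fold change nearest to 0, -0.78 (adjusted p = 0.11).

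With d4T 24h replicate 2 left out, all 9 genes fell with FLT at 24h, where 14.5% of genes fell. In that fit the log2 fold change of *mex-5* was -1.47 (SE 0.23, adjusted p = 2.1e-05), that of *mex-3* -1.23 (SE 0.20, adjusted p = 2.2e-05) and that of *pos-1* -0.78 (SE 0.21, adjusted p = 0.0045). Other libraries decided the count as well. It was 4 without DMSO 24h replicate 1 and 3 without FLT 24h replicate 1, and 0 without DMSO 24h replicate 2, DMSO 24h replicate 3, FLT 24h replicate 2 or FLT 24h replicate 3. DESeq2 called 6 of the 9 genes lower, where it called 12.9% of genes lower. Intestine genes gave 0 of 8 called in this comparison (4 lower at an unadjusted p under 0.05, with 41552 to 54543 CPM summed with FLT), and muscle genes 2 of 6 lower (1023 to 1229.8 CPM with DMSO, 941 to 1077 CPM with FLT). With all libraries, other lists had higher values with FLT without a higher call, with 7 of 10 cuticle genes (277 to 445 CPM summed with DMSO, 318 to 921 CPM with FLT), 3 of 6 neuron and 4 of 11 sperm genes higher at an unadjusted p under 0.05, and 1 cuticle gene was called lower. Without d4T 24h replicate 2, 3 of 6 neuron, 2 of 10 cuticle and 1 of 12 sperm genes were called higher, where 11.1% of genes were. In that fit 3 of 8 intestine, 2 of 6 muscle and 1 of 10 cuticle genes were called lower. The part of these lists in the result was not tested.

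With d4T at 24h the result rested on the library labelled d4T 24h replicate 2. With all libraries 0 of the 9 genes passed, where 6.31% of genes changed in either direction, and 0 of the 9 had an unadjusted p under 0.05, as 26.4% of all genes had. *puf-5* stood at 172, 1139.8 and 205 CPM in d4T 24h replicates 1, 2 and 3, with 260.4, 411 and 486 CPM with DMSO. Replicates 1 and 3 were below all DMSO libraries and replicate 2 above all of them, and this order held for each of the 9 genes. Without replicate 2, 8 of the 9 genes fell against DMSO, where 22.2% of genes fell. *puf-11*, the Pumilio-family gene, then had the largest difference, -1.11 on the log2 scale (SE 0.30, adjusted p = 0.0037), and *mex-3* the smallest, -0.72 (SE 0.22, adjusted p = 0.0083). *mex-5* had -0.82 (95% interval -1.36 to -0.29) with an adjusted p of 0.01 and was not under the threshold. Replicates 1 and 3 had summed cuticle levels of 974 and 776 CPM (277 to 445 CPM with DMSO) and summed general germline levels of 1953 and 1943 CPM (2617 to 3261 CPM with DMSO). Replicate 1 also had 4.94% of its counts on ribosomal RNA genes and 22.9% of reads that fit several places, and the part of these measures in the result was not tested. The 2 libraries left in the group are assumed in this fit to vary like those of the other groups.

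At 72h d4T and FLT gave smaller differences from DMSO than AZT. With d4T 0 of the 9 genes passed with all libraries (2 lower at an unadjusted p under 0.05, where 16.4% of all genes were), where 11.7% of genes changed in either direction. The d4T libraries of all 9 genes were below all DMSO libraries, as were those of 26.7% of all genes, with log2 fold changes of -1.24 (*puf-5*) to -0.11 (*spn-4*). *puf-5* stood at 368, 368 and 507 CPM with d4T and at 991, 965 and 969 CPM with DMSO, a log2 fold change of -1.24 (SE 0.45, adjusted p = 0.045). *puf-11* stood at 239.7, 221 and 241 CPM with d4T and at 440.4, 446 and 428 CPM with DMSO, a log2 fold change of -0.91 (SE 0.39, adjusted p = 0.088). The libraries of both genes were far apart in a comparison whose shared estimate of the spread was wide. In the fit without d4T 24h replicate 2, these 2 Pumilio-family genes fell (adjusted p = 0.00062 for *puf-5* and 0.0053 for *puf-11*) and the other 7 did not pass, where 14.0% of genes fell. In a fit of the d4T 72h and DMSO 72h libraries alone, 8 of 9 passed, where 24.6% of genes were lower. *spn-4*, which acts in the early embryo, stood closest to its control, at 1302, 1245 and 1244 CPM with d4T and 1308, 1382 and 1407 CPM with DMSO (95% interval of the log2 fold change -0.83 to 0.60).

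With FLT at 72h 0 of the 9 genes passed with all libraries (1 lower at an unadjusted p under 0.05, where 14.0% of all genes were), where 8.06% of genes changed in either direction. The libraries of 5 genes did not overlap with DMSO, where 23.5% of all genes were separate with FLT lower, and the log2 fold changes were -0.94 (*oma-2*) to 0.09 (*puf-5*). *oma-2* stood at 349, 458 and 589 CPM with FLT and at 879, 866 and 923 CPM with DMSO, a log2 fold change of -0.94 (SE 0.41, adjusted p = 0.12). *puf-5* stood at 765, 965 and 1381 CPM with FLT, on both sides of its DMSO libraries. Without the library labelled d4T 24h replicate 2, 1 of the 9 genes, *oma-2*, fell (-0.96, SE 0.24, adjusted p = 0.0036), where 8.66% of genes fell. The effect of FLT at 72h minus that at 24h gave 0 of 9 with all libraries (2 higher at an unadjusted p under 0.05, as were 15.9% of all genes, and 9.73% of all genes changed in either direction). Without that library it gave 2 of 9 higher (10.2% of genes higher), *puf-5* at 1.40 (SE 0.38, adjusted p = 0.0067) and *mex-5* at 1.44 (SE 0.32, adjusted p = 0.0014). The same difference for d4T gave 0 of 9 with all libraries (1 lower at an unadjusted p under 0.05, as were 14.2% of all genes), where 8.01% of genes changed in either direction, with values of -1.62 (*puf-5*) to -0.22 (*spn-4*). It gave no call without that library, with values of -0.22 (*puf-5*) to 0.72 (*spn-4*).

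**Figure D2:**
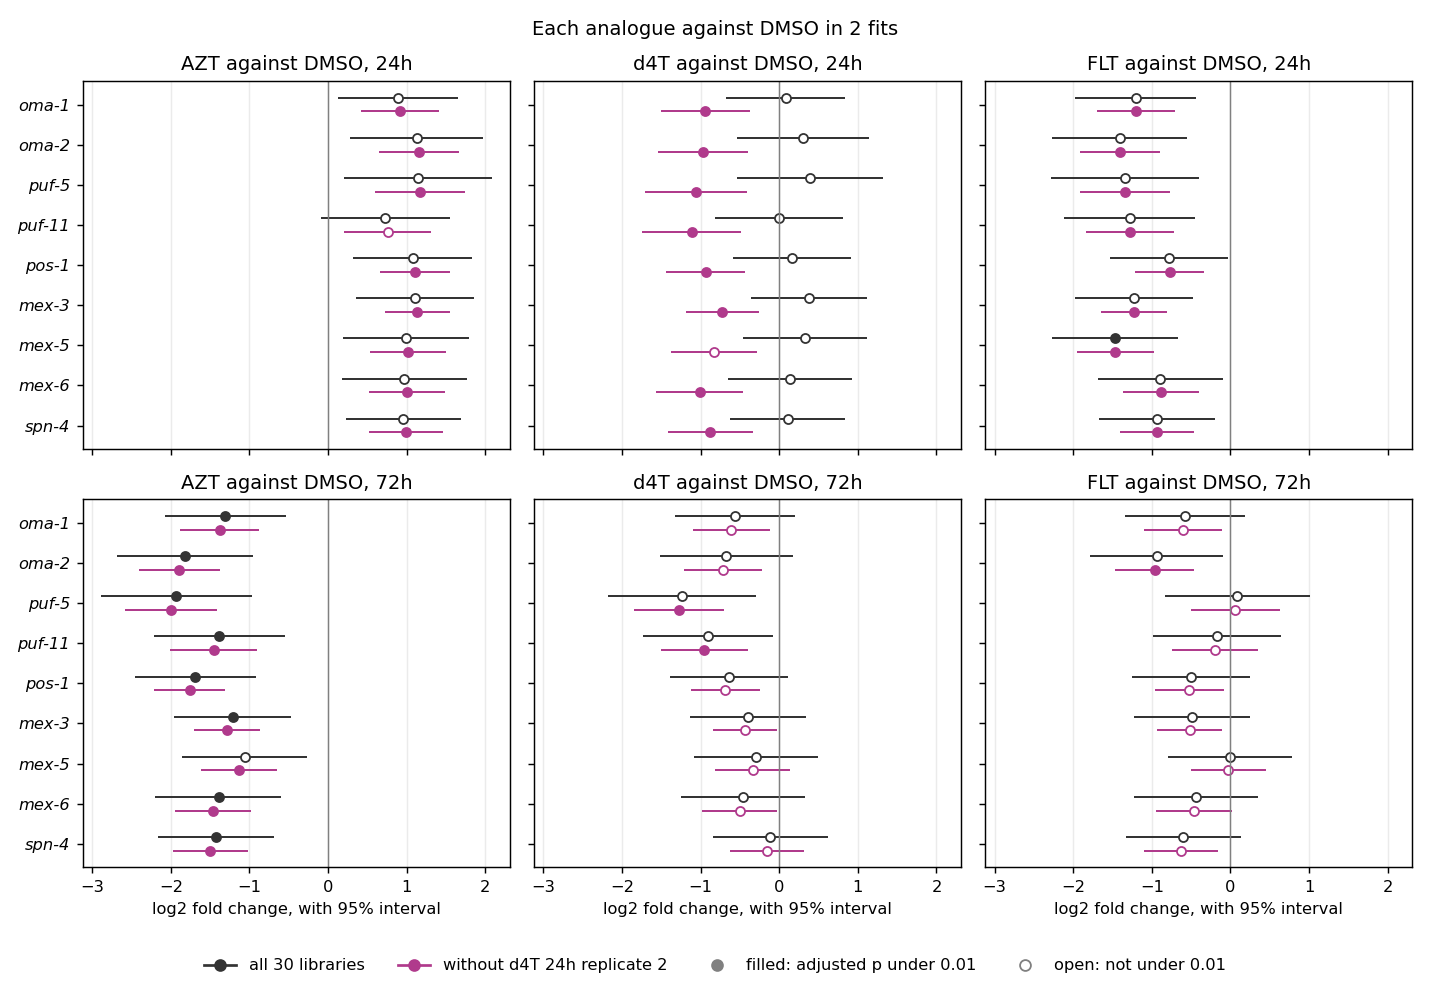
Log2 fold change of each gene against DMSO for AZT, d4T and FLT (columns) at 24h and 72h (rows), with 95% intervals. Dark points are from all 30 libraries and purple points without the library labelled d4T 24h replicate 2, and filled points passed an adjusted p under 0.01. AZT lies above 0 at 24h and below 0 at 72h, FLT below 0 at 24h, and the points of d4T at 24h move from near or above 0 to below 0 without that library.

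The solvent was compared with unexposed nematodes. At 24h 0 of the 9 genes passed in either fit (0 at an unadjusted p under 0.05 with all libraries, against 42.1% of all genes), with log2 fold changes of -0.57 to -0.05, where 12.6% of genes changed in either direction. At 72h 0 of 9 passed with all libraries (0 at an unadjusted p under 0.05, against 33.5% of all genes), with values of 0.06 to 0.92, where 11.7% changed in either direction. The libraries of 6 genes did not overlap at 72h, where 26.2% of all genes were separate with DMSO higher. *puf-5* stood at 531, 582 and 437 CPM in unexposed nematodes and at 991, 965 and 969 CPM with DMSO at 72h, a log2 fold change of 0.92 (SE 0.45, adjusted p = 0.15). With d4T 24h replicate 2 left out, this gene alone rose (0.93, adjusted p = 0.0093), where 11% of genes rose. In a fit of these 6 libraries alone, 6 of 9 passed, where 21.7% of genes were higher.

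Against unexposed nematodes, the second control, the 9 genes had the same signs as against DMSO with AZT at both times and with FLT at 24h, with other counts past the threshold. FLT at 24h was lower for 8 of 9 genes, where 12.3% of genes were lower. *pos-1* stood at 637, 671 and 753 CPM in unexposed nematodes at 24h and at 361, 289 and 157 CPM with FLT, without overlap, a log2 fold change of -1.35 (SE 0.36, adjusted p = 0.0046). *puf-5* was the exception, at -1.40 (SE 0.45, adjusted p = 0.015). The count was 3 without unexposed 24h replicate 2, 4 without FLT 24h replicate 2 and 0 without unexposed 24h replicate 3 or FLT 24h replicate 3, and it was 9 without the library labelled d4T 24h replicate 2 (20.2% of genes lower). AZT at 72h was lower for 1 gene, *spn-4* (-1.29, SE 0.35, adjusted p = 0.0048), where 13.2% of genes were lower, and for all 9 without the library labelled d4T 24h replicate 2 (23.7% of genes lower). The call of *spn-4* was lost without AZT 72h replicate 1 or 2, or unexposed 72h replicate 2 or 3.

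AZT at 24h gave 0 of 9 against unexposed nematodes with all libraries (4 higher at an unadjusted p under 0.05, as were 9.30% of all genes), where 0.704% of genes changed in either direction, and 4 of 9 higher without the library labelled d4T 24h replicate 2 (3.32% of genes higher). These were *oma-2*, *puf-5*, *mex-3* and *mex-5*, with log2 fold changes of 0.91 to 1.12. d4T at 24h gave 0 of 9 with all libraries (0 at an unadjusted p under 0.05, against 55.8% of all genes, and 32.2% of all genes changed in either direction) and 9 of 9 lower without that library (27.5% of genes lower). At 72h d4T gave 0 of 9 in either fit (0 at an unadjusted p under 0.05 with all libraries, against 12.7% of all genes), where 0.206% of genes changed in either direction, with values of -0.60 (*puf-11*) to 0.02 (*spn-4*). FLT at 72h gave 0 of 9 with all libraries (1 higher at an unadjusted p under 0.05, as were 15.7% of all genes, and 12.5% of all genes changed in either direction), and without the library labelled d4T 24h replicate 2 *puf-5* alone was higher (1.00 on the log2 scale, SE 0.27, adjusted p = 0.0059), where 9.96% of genes were higher. The DMSO and unexposed comparisons of an analogue share its libraries, so that they are not independent of each other.

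The analogues, which differ at the sugar, were then compared with each other at the same dose and time, in 6 pairs with p adjusted over all genes tested in each. At 24h AZT and FLT differed for all 9 genes, all higher with AZT, where 17.4% of genes were higher. The difference was 1.86 (*pos-1*, 95% interval 1.096 to 2.61) to 2.54 (*oma-2*, 95% interval 1.66 to 3.41) on the log2 scale, and no libraries of these groups overlapped, where 28.8% of all genes were separate with AZT higher. In the fit without d4T 24h replicate 2, the count was again 9 of 9 higher (23.6% of genes higher). AZT and d4T at 24h gave 0 of 9 with all libraries (4 higher at an unadjusted p under 0.05, as were 27.6% of all genes, and 29.5% of all genes changed in either direction), with differences of 0.67 (*mex-5*, 95% interval -0.11 to 1.45) to 0.92 (*pos-1*, 95% interval 0.18 to 1.66). Without replicate 2 of d4T 24h all 9 were higher with AZT, by 1.85 to 2.23, where 31.0% of genes were higher.

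d4T and FLT at 24h differed for 3 of the 9 genes with all libraries, *oma-2*, *mex-3* and *mex-5*, where 4.38% of genes were higher with d4T. *mex-5* stood at 214, 1006 and 229 CPM with d4T and at 209.8, 129 and 78.2 CPM with FLT, with the lower d4T libraries just above the highest FLT library. Without replicate 2 of d4T 24h, 0 of 9 passed, where 17.4% of genes changed in either direction, and the differences were -0.16 (*pos-1*, SE 0.23) to 0.64 (*mex-5*, SE 0.25). The count was 9 without d4T 24h replicate 1, 7 without d4T 24h replicate 3, and 0 without FLT 24h replicate 2 or 3. The call of a difference between d4T and FLT at 24h thus rested on single libraries.

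At 72h all AZT libraries were lower than those of both other analogues for the 9 genes, as held for 30.9% of all genes against d4T and for 26.7% against FLT. Against d4T 1 of 9 genes passed, *spn-4*, at -1.31 on the log2 scale (95% interval -2.04 to -0.58, adjusted p = 0.0091), where 3.98% of genes were lower. That call was lost without any 1 of the 6 libraries compared. Without the library labelled d4T 24h replicate 2, 7 of 9 passed (19.8% of genes lower), and the exceptions were the Pumilio-family genes *puf-5* (-0.72, SE 0.27, adjusted p = 0.028) and *puf-11* (-0.50, SE 0.26, adjusted p = 0.11). Against FLT 2 of 9 passed with all libraries, *puf-5* at -2.02 (95% interval -2.97 to -1.07, adjusted p = 0.00089) and *pos-1* at -1.19 (95% interval -1.93 to -0.45, adjusted p = 0.0077), where 18.3% of genes were lower. The count was 1 without any 1 library of AZT 72h, or without FLT 72h replicate 2 or 3, and DESeq2 called 4 of 9, where it called 21.9% of genes lower. With d4T 24h replicate 2 left out, all 9 were lower than with FLT (24.1% of genes lower).

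d4T and FLT at 72h gave 0 of 9 with all libraries (1 lower with d4T at an unadjusted p under 0.05, as were 14.8% of all genes), where 11.2% of genes changed in either direction. For 7 genes other than the Pumilio pair the difference was -0.29 (*mex-5*, 95% interval -1.07 to 0.49) to 0.49 (*spn-4*, 95% interval -0.23 to 1.21), and intervals of this width do not show that the analogues act alike. *puf-5* stood at 368, 368 and 507 CPM with d4T and at 765, 965 and 1381 CPM with FLT, without overlap, a difference of -1.32 (95% interval -2.25 to -0.39, adjusted p = 0.039). In the fit without d4T 24h replicate 2, *puf-5* was lower with d4T (-1.34, SE 0.27, adjusted p = 0.00046), 1 of 9, where 10.7% of genes were lower. *puf-11* had -0.76 (SE 0.26, adjusted p = 0.028) in that fit.

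Within an exposure, 72h was compared with 24h, which spans the first days of egg laying. In DMSO 5 of the 9 genes were higher at 72h, where 13.9% of genes were higher. *pos-1* stood at 337, 483 and 565 CPM at 24h and at 1889, 1822 and 1800.2 CPM at 72h. No libraries overlapped, and the log2 fold change was 1.99 (SE 0.37, adjusted p = 0.00011). *oma-2* (1.76), *spn-4* (1.61), *mex-6* (1.44) and *mex-3* (1.35) also rose, while *puf-11* had 0.64 (SE 0.39, adjusted p = 0.19). The count was 1 without DMSO 24h replicate 1 and 8 without the library labelled d4T 24h replicate 2, where 21.1% of genes were higher. In unexposed nematodes 0 of 9 passed with all libraries (5 higher at an unadjusted p under 0.05, as were 20.0% of all genes, and 17.7% of all genes changed in either direction), with values of 0.16 (*puf-11*) to 1.08 (*oma-2*). Without the library labelled d4T 24h replicate 2, 5 of 9 were higher (13.7% of genes higher), namely *oma-2*, *pos-1*, *mex-3*, *mex-5* and *spn-4*.

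With FLT all 9 genes were higher at 72h than at 24h, with log2 fold changes of 1.73 (*oma-1*) to 2.77 (*puf-5*), where 16.2% of genes were higher. *puf-5* stood at 173, 202 and 80.9 CPM at 24h and at 765, 965 and 1381 CPM at 72h, a log2 fold change of 2.77 (SE 0.48, adjusted p = 5.5e-05). *mex-5* stood at 209.8, 129 and 78.2 CPM at 24h and at 620.1, 697 and 1033 CPM at 72h, a log2 fold change of 2.49 (SE 0.40, adjusted p = 2.6e-05). No libraries of the 9 genes overlapped between these times (25.9% of all genes were separate with 72h higher), and all 9 passed with each library left out in turn. All 9 also rose without the library labelled d4T 24h replicate 2, where 21.8% of genes were higher.

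AZT was the exposure in which the genes were lower at 72h than at 24h. With all libraries 2 of 9 passed, both of the Pumilio family, where 24.1% of genes were lower. *puf-5* stood at 888, 1022 and 646 CPM at 24h and at 204, 234 and 331 CPM at 72h (log2 fold change -1.73, SE 0.46, adjusted p = 0.0023). *puf-11* stood at 433, 501 and 465 CPM at 24h and at 133, 173 and 198 CPM at 72h (log2 fold change -1.47, SE 0.40, adjusted p = 0.0028). The libraries of all 9 genes did not overlap (33.0% of all genes were separate with 72h lower), and the smallest difference was that of *pos-1*, -0.77 (SE 0.36, adjusted p = 0.06). The count was 0 without AZT 72h replicate 1 and 1 without AZT 72h replicate 2, and 9 without the library labelled d4T 24h replicate 2 (29.4% of genes lower). Set against the general germline genes, which fell with AZT between the times (16 of 17), the median of the 9 genes was 0.35 instead of -1.03. With d4T 1 of 9 genes was higher at 72h with all libraries, *spn-4* (1.39, SE 0.36, adjusted p = 0.0034), where 10.2% of genes were higher. Its call was lost without replicate 1 or 3 of d4T 24h or any 1 library of d4T 72h. Without replicate 2 of d4T 24h 8 of 9 were higher (24.7% of genes higher), all but *puf-11* (0.84, SE 0.30, adjusted p = 0.018).

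**Figure D3:**
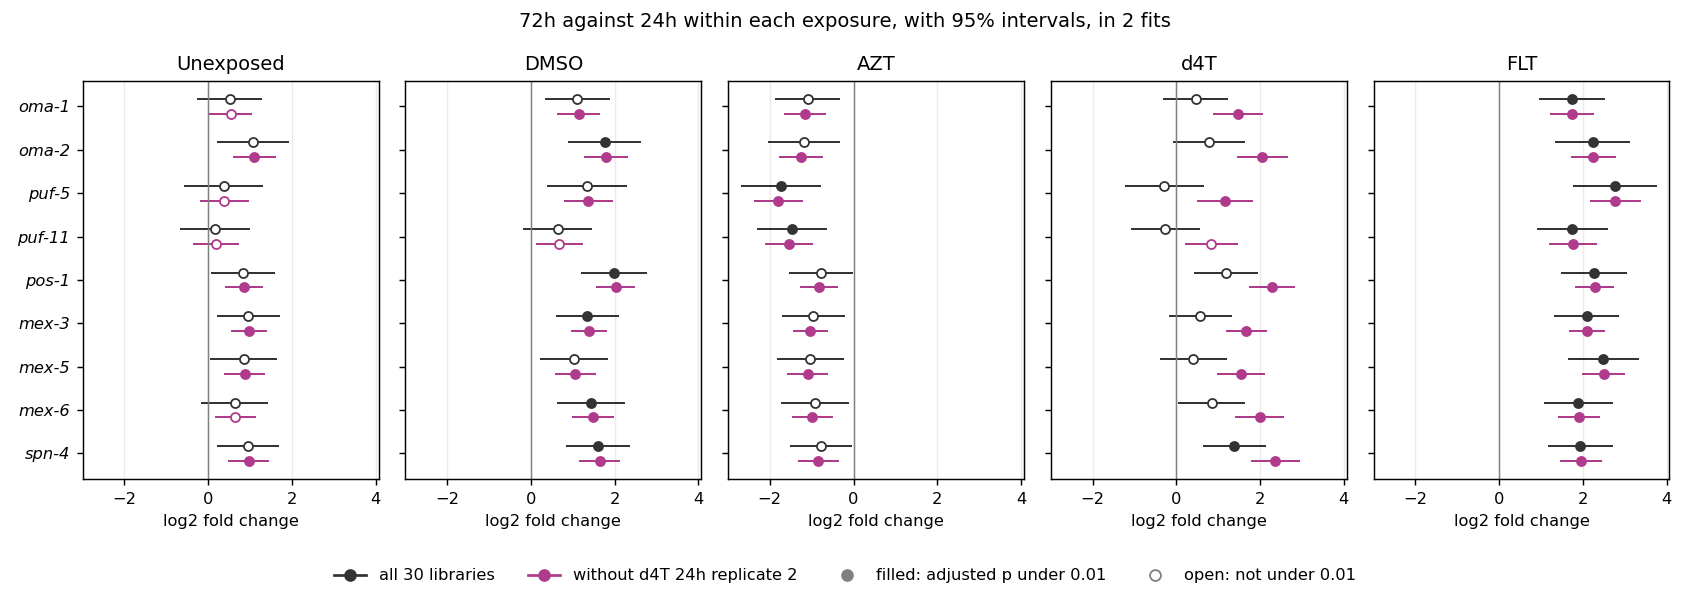
Log2 fold change of each gene at 72h against 24h within each exposure, with 95% intervals. Dark points are from all 30 libraries and purple points without the library labelled d4T 24h replicate 2, and filled points passed an adjusted p under 0.01. All points of FLT lie between 1.73 and 2.78, and all points of AZT below 0.

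The 9 genes moved together across libraries, but not in fixed proportion. Over the 30 libraries the correlation of log2 levels between 2 of the genes was 0.813 (*puf-5* with *spn-4*) to 0.987 (*oma-2* with *mex-3*), with a median of 0.944 over 36 pairs. These libraries also differ in depth and in the levels of marker genes of other tissues. Between libraries of the same group, after group means were taken off, the correlations were 0.906 to 0.994. The ratio of *oma-2* to *oma-1*, per kb, differed by time. It was 1.27 to 1.47 in unexposed nematodes and 1.32 to 1.48 with DMSO at 24h, and 1.98 to 2.11 and 2.08 to 2.34 at 72h. With AZT it was 1.55 to 1.79 at 24h and 1.56 to 1.57 at 72h, so that the rise of the ratio between times that the control groups showed was not seen with AZT. It was 1.72 to 1.76 with FLT at 72h, between AZT and the controls.

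The ratio of the Pumilio pair also differed between the controls at 72h. *puf-5* over *puf-11*, per kb, was 1.12 to 1.35 in unexposed nematodes at 72h, 1.81 to 1.89 with DMSO, 2.09 to 2.27 with FLT, 1.13 to 1.40 with AZT and 1.28 to 1.76 with d4T. *pos-1* over *spn-4*, whose products both act on the *glp-1* mRNA, was 1.74 to 1.97 with DMSO and 1.89 to 2.06 with FLT at 72h, and 1.35 to 1.36 in unexposed nematodes and 1.22 to 1.30 with d4T. At 72h both ratios were higher in every FLT and DMSO library than in every unexposed and d4T library. *mex-5* over *mex-6* was 0.938 to 1.08 with FLT at 24h and 1.36 to 1.70 at 72h, without overlap, and 1.46 to 1.62 with DMSO at 24h and 1.06 to 1.22 at 72h, the opposite order. In unexposed nematodes it was 1.053 to 1.215 at 24h and 1.216 to 1.453 at 72h, in the order of FLT. No test was run on these ratios, and reads that fit both copies of a pair are in neither count.

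**Figure D4:**
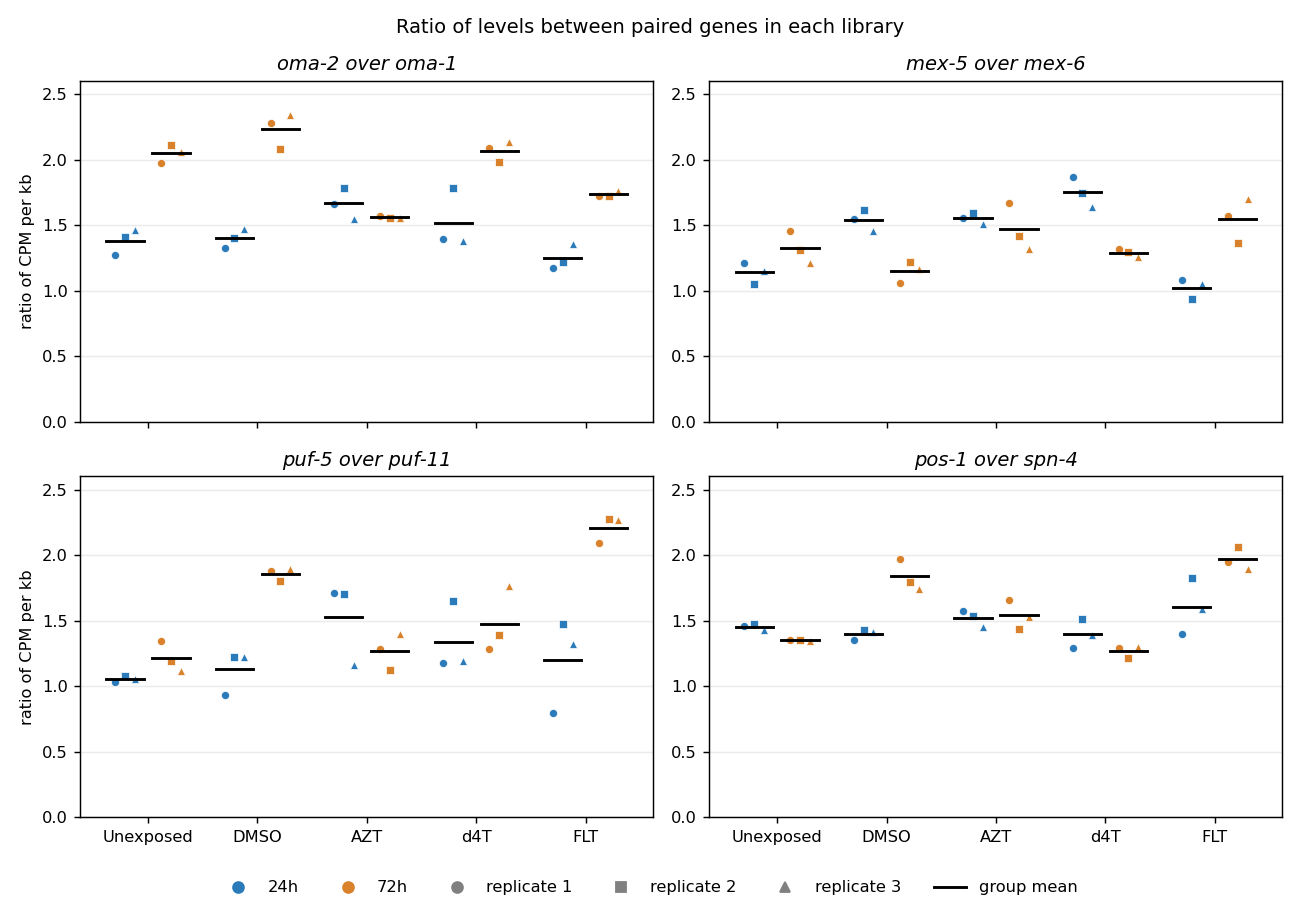
Ratio of levels (CPM per kb of exon) of *oma-2* to *oma-1*, *mex-5* to *mex-6*, *puf-5* to *puf-11* and *pos-1* to *spn-4* in each library, by exposure. Points are libraries (blue 24h, orange 72h, the marker giving the replicate) and bars are group means. The ratio of *oma-2* to *oma-1* is near 2 at 72h in unexposed, DMSO and d4T nematodes and 1.56 to 1.57 with AZT.

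Lists of related genes were measured beside the 9. With AZT at 72h, where 21.6% of all genes fell, 13 of 24 other maternal RNA regulators fell and 0 rose (median log2 fold change -0.91), where the 9 genes had a median of -1.39 and all genes tested one of 0.36. Among them were *puf-8*, a Pumilio-family regulator of the germline (-1.54, adjusted p = 4.8e-06), *ife-1*, a germline form of the cap-binding protein eIF4E (-1.47, adjusted p = 4.3e-06), and *nos-1*, a Nanos homologue (-1.95, adjusted p = 8.4e-06). Of 10 known target mRNAs 6 fell and 0 rose (median -1.15). These included *pal-1*, the Caudal homologue that MEX-3 represses (-1.36, adjusted p = 4e-04), *neg-1*, a target of POS-1 (-1.74, adjusted p = 0.00018), and *mom-2*, a Wnt ligand (-1.67, adjusted p = 1.3e-05). Of 13 oocyte surface and eggshell genes 11 fell (median -1.56), such as *cpg-3*, a chondroitin proteoglycan (-2.38, adjusted p = 3.3e-05), *perm-2* (-1.35, adjusted p = 1.9e-05) and *egg-4* (-1.68, adjusted p = 0.00011). With d4T 24h replicate 2 left out, 16 of 24 regulators, 10 of 10 targets and 12 of 13 eggshell genes fell, where 26.6% of all genes did.

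The partners of these proteins were mixed at AZT 72h, with 6 of 15 lower and 2 higher (median -0.57). *egg-3* and *chs-1*, which anchor the kinase MBK-2 at the oocyte cortex, fell (-1.65, adjusted p = 0.001, and -1.58, adjusted p = 0.0012), and so did the Polo-like kinase gene *plk-2* (-1.40, adjusted p = 0.00015). *gsk-3*, encoding a kinase that marks OMA-1 for destruction, rose (1.22, adjusted p = 4.1e-07), as did *par-1*, encoding the posterior polarity kinase that acts on MEX-5 (0.82, adjusted p = 6.2e-05). Both are also expressed in somatic tissues. Neither rise was particular to AZT, since d4T at 72h also had both called higher (*gsk-3* 0.98, *par-1* 0.63). FLT at 72h had *par-1* called higher (0.75). *gsk-3* was called lower with DMSO than in unexposed nematodes at 72h (-0.68). Of 17 general germline genes 12 fell (median -0.98). Those with the smallest adjusted p were the meiotic cohesin gene *rec-8* (-1.25, adjusted p = 1.1e-05), the synapsis gene *syp-1* (-1.38, adjusted p = 1.2e-05) and the chromosome axis gene *htp-3* (-1.25, adjusted p = 4.9e-05). Without d4T 24h replicate 2, 10 of 15 partners and 16 of 17 general germline genes fell, and 2 partners rose.

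With FLT at 24h, where 9.39% of all genes fell, no gene of these lists rose. Of the other maternal RNA regulators 15 of 24 fell (median -1.11, all genes 0.15, the 9 genes -1.23), including *gld-1*, a KH-domain repressor of maternal mRNAs in meiotic germ cells (-1.37, adjusted p = 0.001), *cpb-1*, a CPEB homologue (-1.53, adjusted p = 0.00054), and *larp-1*, a La-related protein gene (-0.97, adjusted p = 4.6e-05). Of the targets 4 of 10 fell, including *glp-1*, the Notch receptor repressed by POS-1 (-1.09, adjusted p = 0.0026), and its ligand gene *apx-1* (-1.50, adjusted p = 0.00027). Partners fell in 8 of 15 (*par-3* at -1.03, adjusted p = 0.00036, and *mbk-2* at -0.63, adjusted p = 0.0029), eggshell genes in 6 of 13 (*cpg-1* at -1.84, *cpg-2* at -1.80 and *cbd-1* at -1.83) and general germline genes in 8 of 17 (median -0.90). With d4T 24h replicate 2 left out, where 14.5% of all genes fell, the counts were 20 of 24 regulators, 6 of 10 targets, 15 of 15 partners, 10 of 13 eggshell and 12 of 17 general germline genes. With AZT at 24h 0 genes of these 5 lists passed with all libraries by edgeR, their medians were 0.42 to 0.95, and 6 to 11 genes of each list were higher at an unadjusted p under 0.05. Without that library, where 14.5% of all genes rose, 7 of 24 regulators, 8 of 10 targets, 8 of 15 partners, 11 of 13 eggshell and 4 of 17 general germline genes rose.

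At 72h d4T, where 11.7% of all genes changed in either direction, had 3 of 24 other maternal RNA regulators lower, *ife-1* (-1.06, adjusted p = 0.00067), *ccf-1*, a deadenylase gene (-0.76, adjusted p = 0.0024), and *fbf-1*, a Pumilio-family gene of germline stem cells (-0.75, adjusted p = 0.0037), with 1 of 10 targets (*mom-2*, -0.98, adjusted p = 0.0077), 1 of 13 eggshell genes (*perm-2*, -1.52, adjusted p = 2.5e-05) and 0 of 17 general germline genes lower (5 lower at an unadjusted p under 0.05). DMSO at 72h was itself called higher than unexposed nematodes for *ife-1* (1.00), *ccf-1* (0.72), *fbf-1* (0.825) and *perm-2* (1.08), where 5.71% of all genes were higher. Between d4T and unexposed nematodes at 72h 0.206% of all genes changed in either direction. Without d4T 24h replicate 2 the counts were 7 of 24 regulators, 5 of 10 targets, 8 of 13 eggshell and 3 of 17 general germline genes lower with d4T than with DMSO, where 14.0% of all genes fell. FLT at 72h, where 8.06% of all genes changed in either direction, had 1 regulator lower (*ccf-1*, -0.75, adjusted p = 0.0033) and no target, eggshell or general germline gene called (2 targets were lower, and 1 eggshell and 1 germline gene higher, at an unadjusted p under 0.05). Without that library 2 regulators and 2 targets were lower and 1 regulator higher with FLT. Some early zygotic genes were lower with FLT at 72h. *tbx-37* (-4.404, adjusted p = 5.1e-08), *tbx-38* (-3.614, adjusted p = 2.9e-06) and *pes-10* (-2.003, adjusted p = 0.00065) fell with all libraries. In the fit without that library 3 of 9 were lower with FLT, while 4 were higher with AZT and 2 with d4T. The early zygotic sum at 72h was 33.7 to 41.6 CPM with FLT, 64.9 to 69.5 CPM with DMSO and 67.8 to 85.6 CPM in unexposed nematodes. Between the times in FLT, where 16.2% of all genes were higher, all 13 eggshell genes (median 1.97), 15 of 24 regulators, 8 of 10 targets and 9 of 17 general germline genes were higher at 72h, and without that library 13, 19, 9 and 13 of them. *nos-2* of the regulators and targets was at 0 in every library. Whether this 0, like those of *puf-3* and *ceh-51*, came from the level of the gene or from the counting of reads was not tested.

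The level of the 9 genes relative to general germline genes differed between the groups. In log2 CPM, the mean of the 9 genes minus that of 17 general germline genes was 0.52 to 0.88 in FLT 24h, 0.96 to 1.42 in DMSO 24h and 1.21 to 1.37 in unexposed 24h nematodes, and 1.70 to 1.83 in AZT 24h. It was 0.95 and 1.12 in d4T 24h replicates 1 and 3 and 1.96 in replicate 2. At 72h it was 2.20 to 2.22 in unexposed nematodes, 2.36 to 2.46 with DMSO, 2.17 to 2.22 with d4T, 1.68 to 2.21 with FLT and 1.85 to 2.15 with AZT. At 24h the AZT libraries stood above and the FLT libraries below all control libraries on this measure. The mean of the 9 genes minus that of the 13 eggshell genes moved over a smaller range, from -0.02 in a DMSO 24h library to 0.68 in a d4T 72h library. No test was run on these differences of means.

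**Figure D5:**
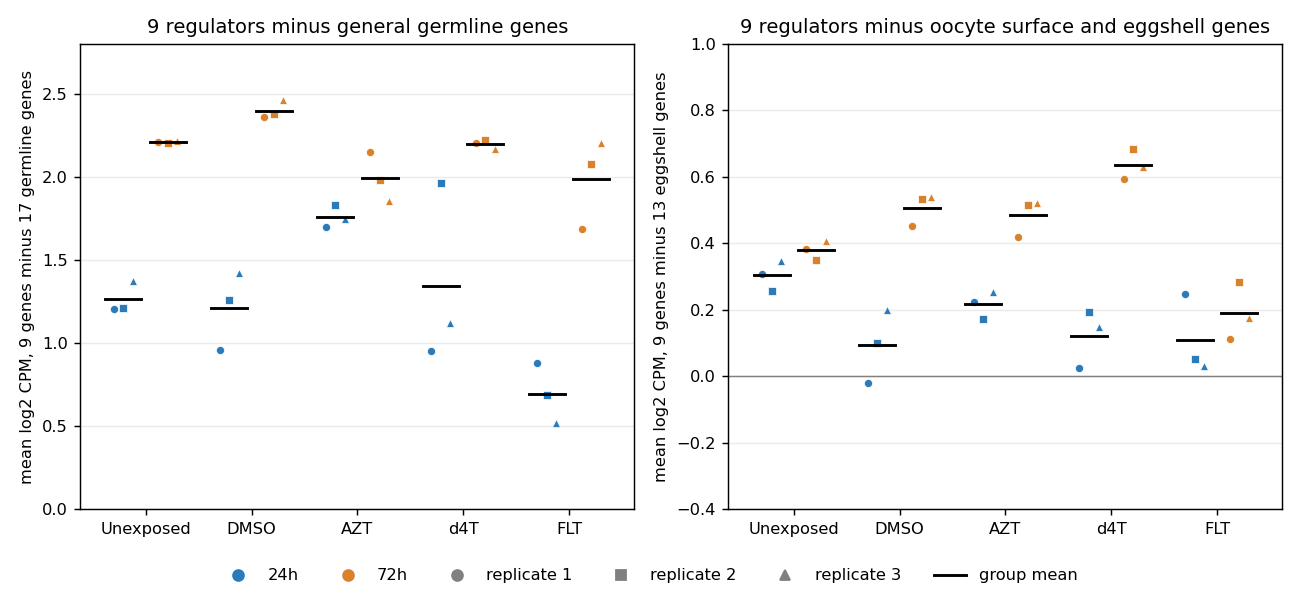
Mean log2 CPM of the 9 genes minus the mean of 17 general germline genes (left) and minus the mean of 13 oocyte surface and eggshell genes (right) in each library, by exposure. Points are libraries (blue 24h, orange 72h, the marker giving the replicate) and bars are group means. The difference to the germline genes is 0.52 to 0.88 in FLT 24h and 2.36 to 2.46 in DMSO 72h, while that to the eggshell genes stays between -0.02 and 0.68.

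Among 8123 genes with a mean of at least 10 CPM, the 5 whose log2 level over the 30 libraries was most like the mean profile of the 9 genes were R04D3.3, *ptr-2* and *nemp-1* (Pearson correlation 0.988 each), *pie-1* (0.987) and C50E3.13 (0.986). *pie-1* encodes a CCCH zinc finger protein of the germ lineage of the embryo and was 1 of the 26 listed maternal RNA regulators. These correlations describe the 30 libraries, which the genes share and which also differ in depth and in marker genes of other tissues.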

How the data were processed

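Whole nematodes were sequenced on RNAseq libraries of 10 groups of 3. Per the labels and the submitters' processing notes, the authors processed reads with CASAVA 1.8.2, trimmed them with Trimmomatic 0.32, aligned them with TopHat2 2.0.8 and Bowtie2 2.1.0 to WBcel235 and counted them per gene with HTSeq. The deposited values are raw counts per gene, with 5 further entries for reads assigned to no gene (10.5 to 26.5% of a library, median 14.5%), which were left out of library sizes. Intervals cover the spread between libraries. A single edgeR 4.0.16 model (R 4.3.3) took the counts of all 30 libraries (filterByExpr with minimum count 10 and minimum total 15, TMM, glmQLFit robust, glmQLFTest, 20 residual degrees of freedom, common biological coefficient of variation 0.24). P-values were adjusted over 16048 genes, and an adjusted p under 0.01, the study's threshold, was called. The study used DESeq. CPM are on TMM-scaled library sizes, and log2 CPM of lists carry a prior count of 2. The test was also run on counts simulated from its own fitted means and dispersions. No outcome of that run is given here, and no call rests on it.

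The 9 genes and the other lists were chosen with earlier results of these data known. The text names all 9 genes and, of each other list, up to 3 called genes per direction and comparison with DMSO, by adjusted p. For likeness it names the 5 genes with the highest Pearson correlation. The named genes at 0 counts were added after their values were seen. Gene names came from a reference table and positions from an annotation of the same build.

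As alternatives, libraries were scaled by relative log expression, by their totals or by general germline genes, the filter was dropped, DESeq2 1.42.0 or a replicate block was used, only the groups compared were fitted, unexposed nematodes served as the control, or 1 replicate at a time was left out. The fit without the library labelled d4T 24h replicate 2 for comparisons that do not hold it was chosen after seeing the data.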

Additional observations from a re-analysis of the deposited data

Results flagged for a closer look

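The effect of AZT against DMSO differed between 24h and 72h for all 9 genes, by the test of the difference between the effects at these times. On the log2 scale the effect at 72h minus that at 24h was -2.198 for *oma-1*, -2.949 for *oma-2*, -3.071 for *puf-5*, -2.111 for *puf-11*, -2.765 for *pos-1*, -2.317 for *mex-3*, -2.054 for *mex-5*, -2.365 for *mex-6* and -2.385 for *spn-4*, with adjusted p of 6.7e-05 to 0.002 by edgeR. All 3 libraries of AZT lay above those of DMSO at 24h and below them at 72h for each gene.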

How the results depend on the processing

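The counts below are of the 9 genes past the threshold, and the cause of a moved count was not tested. Fitting the compared groups alone gave 9 for AZT against DMSO at 24h (0 with all groups), 8 for d4T at 72h (0), 1 for FLT at 72h (0) and 6 for DMSO against unexposed nematodes at 72h (0). For FLT against DMSO at 24h DESeq2 gave 6 and unexposed nematodes as the control 8. For AZT against DMSO at 72h library totals gave 4, scaling by general germline genes 3 and unexposed nematodes as the control 1. In that comparison the median of all genes was 0.36 with TMM, 0.24 with relative log expression and 0.67 with library totals, and 4371, 3798 and 5760 genes were higher against 3474, 3972 and 2222 lower. With germline scaling the median was 1.41, and 8471 genes were higher against 522 lower.

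With each replicate left out in turn, the counts were 0 to 8 for AZT against DMSO at 24h, 0 to 8 for d4T at 24h, 0 to 9 for FLT at 24h, 3 to 9 for AZT at 72h, 0 to 2 for d4T at 72h, 0 to 1 for FLT at 72h, 0 to 0 for DMSO against unexposed nematodes at 24h and 0 to 1 at 72h. Of these fits, the share of all genes called was taken only in the one without d4T 24h replicate 2.

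Some log2 fold changes changed sign. Without d4T 24h replicate 2, d4T against DMSO at 24h was -0.94 for *oma-1*, -0.97 for *oma-2*, -1.06 for *puf-5*, -0.94 for *pos-1*, -0.72 for *mex-3*, -1.01 for *mex-6* and -0.88 for *spn-4*, d4T against unexposed nematodes at 24h was -1.13 for *oma-2*, -1.12 for *puf-5*, -0.91 for *mex-3* and -0.94 for *mex-5*, and *puf-5* with d4T at 72h against 24h was 1.16. The other end of the range with 1 replicate left out was, against DMSO at 24h, 0.39 for *oma-1*, 0.67 for *oma-2*, 0.78 for *puf-5*, 0.49 for *pos-1*, 0.71 for *mex-3*, 0.47 for *mex-6* and 0.41 for *spn-4*, against unexposed nematodes at 24h 0.54 for *oma-2*, 0.75 for *puf-5*, 0.55 for *mex-3* and 0.59 for *mex-5*, and -0.76 for *puf-5* between the times. With germline scaling, AZT at 72h against 24h was 0.59 for *pos-1* and 0.57 for *spn-4*.

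Replicate numbers did not pair the libraries: over 24 same-numbered pairs the correlation of deviations from the group means was -0.252 to 0.0891, and 0 were over 0.1. With a replicate block the counts were 8 for AZT against DMSO at 72h and 1 for FLT at 24h.

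Of 261 values of single genes per setting, the side of the threshold was kept and no called value changed sign for 238 with DESeq2, 171 in the fit of the compared groups alone, 256 with no filter, 257 with relative log expression, 251 with library totals, 225 with germline scaling and 257 with the replicate block. Among these, values under no call changed sign in 2, 2, 1, 2, 11, 41 and 1. With 1 replicate left out, 1795 of 1989 were kept in this sense (53 changed sign under no call), 78 lost their call, 12 changed sign with a call and the others gained a call.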
